A study of Mus musculus with 12 samples.

Results

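Axon guidance ligands and receptors were examined in mouse lung tumours with and without the DNA methyltransferase Dnmt3a. The members were all probes whose gene name begins with a semaphorin class 3 to 7, plexin, Slit, Robo, ephrin, Eph receptor, netrin or Unc5 symbol. They were 116 of 41174 probes on the array and stood for 64 of its 22410 genes with a name. Of these, 103 probes and 62 genes were measured, which means well above background in KO or in WT RNA on at least 6 of 12 arrays. The 2 genes not measured were Ntn4, above background on 2 arrays in KO and 4 in WT RNA, and Epha10, on 0 arrays in either. No probe carries the name Plxnd1, the plexin that binds several class 3 semaphorins, so it has no value here. The name pattern also takes in Unc5cl, an Unc5C-like signalling protein that is not a netrin receptor.

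Guidance cues are secreted or membrane-bound proteins that steer growing axons, and the same proteins act on blood vessels and epithelia. Semaphorins signal through plexins, the class 3 members mostly with neuropilin coreceptors. Slits signal through Robo receptors, netrins through Dcc, neogenin and Unc5 receptors, and ephrins through Eph receptor tyrosine kinases, where ligand and receptor both sit on cell surfaces. In lung these systems take part in vessel growth and branching of the airways.

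Every mouse, KO and WT alike, carried the K-ras LSL-G12D allele, was of strain C57/129 and received adenovirus with Cre recombinase into the airways at 6 to 12 weeks of age. The Cre switched on mutant K-ras in the cells it reached and, in KO mice, deleted a conditional Dnmt3a gene on both alleles in those cells. Cells of the tumour that the virus did not reach keep Dnmt3a. Each of the 12 arrays compared KO tumour RNA in one dye with WT tumour RNA in the other, and the dyes were swapped on 6 of them, so that Cy5 marked KO RNA on the other 6. By the ages and sexes in the labels (the unit of age is not given) the arrays fall into 4 pairs. Pair A (replicates 1 to 4, slide 1) set a male KO of age 47.7 against a male WT of 42.6. Pair B (replicates 5 to 8, slide 2) set a male KO of 27 against a male WT of 41.3. Pair C (replicates 9 and 10) set a male KO of 27 against a female WT of 47.6. Pair D (replicates 11 and 12) set a male KO of 29.1 against a male WT of 37.3. Pairs C and D were on slide 3. Dyes were swapped within pairs A and B only: KO RNA was in Cy5 on both arrays of pair C and in Cy3 on both of pair D. The means of pairs C and D therefore hold any dye difference as well. The labels call the arrays biological replicates but do not say whether arrays of a pair share animals, so the p-values measure the spread between these arrays.

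The sequences below show the windows around the start of the 3 genes that were higher in KO tumours and of Sema3g, the gene with the largest fall, because Dnmt3a methylates cytosine in the dinucleotide CG. Each window runs from 250 bases before to 50 after the RefSeq transcription start (build GRCm38.p6), 5′ to 3′ on the gene's strand, in lower case with each CG in capitals.
Sema3g, chr14:31217623-31217922, plus strand: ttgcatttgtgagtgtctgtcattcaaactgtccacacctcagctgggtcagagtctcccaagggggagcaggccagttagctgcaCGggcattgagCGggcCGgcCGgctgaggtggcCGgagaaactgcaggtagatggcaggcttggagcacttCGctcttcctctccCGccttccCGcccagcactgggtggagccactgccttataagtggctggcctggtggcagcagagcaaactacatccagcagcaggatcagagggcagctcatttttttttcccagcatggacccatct
Plxna3, chrX:74328816-74329115, plus strand: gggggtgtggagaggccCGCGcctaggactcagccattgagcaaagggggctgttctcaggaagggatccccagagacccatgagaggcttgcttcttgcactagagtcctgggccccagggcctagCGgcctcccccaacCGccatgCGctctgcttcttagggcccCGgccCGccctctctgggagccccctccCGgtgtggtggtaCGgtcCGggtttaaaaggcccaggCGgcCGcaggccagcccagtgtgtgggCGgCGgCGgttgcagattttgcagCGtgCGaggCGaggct
Ephb6, chr6:41605261-41605560, plus strand: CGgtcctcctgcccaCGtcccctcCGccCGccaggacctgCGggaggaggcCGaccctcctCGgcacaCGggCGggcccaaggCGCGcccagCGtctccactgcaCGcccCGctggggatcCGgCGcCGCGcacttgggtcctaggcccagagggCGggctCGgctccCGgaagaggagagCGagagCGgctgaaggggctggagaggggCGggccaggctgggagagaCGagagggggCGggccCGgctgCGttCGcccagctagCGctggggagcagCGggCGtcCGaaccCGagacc
Sema3c, chr5:17574566-17574865, plus strand: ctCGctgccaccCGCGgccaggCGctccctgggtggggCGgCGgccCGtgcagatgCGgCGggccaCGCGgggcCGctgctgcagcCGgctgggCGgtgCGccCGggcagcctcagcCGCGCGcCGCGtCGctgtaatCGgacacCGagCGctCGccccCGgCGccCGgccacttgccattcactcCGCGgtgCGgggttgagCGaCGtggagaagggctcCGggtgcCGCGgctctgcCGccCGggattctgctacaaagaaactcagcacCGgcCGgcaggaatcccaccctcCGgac

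The Sema3g window holds 8 CG, a number reached by 48.6% of the 32851 windows in the table. The Plxna3 window holds 18, reached by 29.7%. The Ephb6 window holds 34, reached by 7.73%, and the Sema3c window 42, reached by 3.03%. Of the other called genes with an entry, Sema7a has 23 CG, Efna3 has 22 and 34 at its 2 listed starts, and Sema6b has 29 and 6. Windows were found for 53 of the 62 measured genes, with a median of 23 CG where the start with the most was taken, against 8 over the 27025 genes of the table. That table was not limited to genes measured on the array. The median was 29 over the 7 called genes found and 21.5 over the 46 that were not called. These counts describe sequence only, and methylation was not measured on these arrays.

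The check of the labels came from Dnmt3a itself. Its log2 ratio of KO over WT was between -0.41 and -0.06 over the 12 arrays, with a median of -0.17. All 12 arrays were below 0, and the fitted value was -0.21 ± 0.046 (SE; limma, adjusted p = 0.0213). The share of probes well above background was between 59.0% and 72.2% on the 4 arrays of slide 3 and between 81.7% and 89.6% on the other 8. Over all genes the ratios of arrays of the same pair correlated at 0.13 to 0.56, and those of different pairs at -0.17 to 0.53. Replicate 4 had no correlation above 0.18 and a mean of 0.108, and its weight on results is given where it matters. Replicate 11 was close to it, with a mean of 0.112 and correlations from -0.14 to 0.25.

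Of the 62 measured genes, 8 were called at an adjusted p under 0.05 over all genes (limma with the pair as a random block and a dye term), which is 12.9%, against 7.14% of all 20597 genes tested. Higher in KO tumours were the receptor genes Plxna3 and Ephb6 and the ligand gene Sema3c. Lower were the ligand genes Sema3g, Sema6b, Sema7a, Efna3 and Ntn1. Among all genes 3.37% were called higher and 3.77% lower, so that 47.2% of the calls were higher. The counts of single families given below are small and were not tested against these shares. With the local backgrounds used as deposited that share was 59.7%, and 4 members were called higher and 4 lower. The members' ratios lay above 0 for 23 genes and below 0 for 39, with a median log2 ratio of -0.04, against -0.01 over all genes. At an unadjusted p under 0.05 there were 25 members, and 22.4% of all genes. In RNA from whole tumours, fewer cells of a type and less RNA per cell cannot be told apart.

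**Figure D1:**
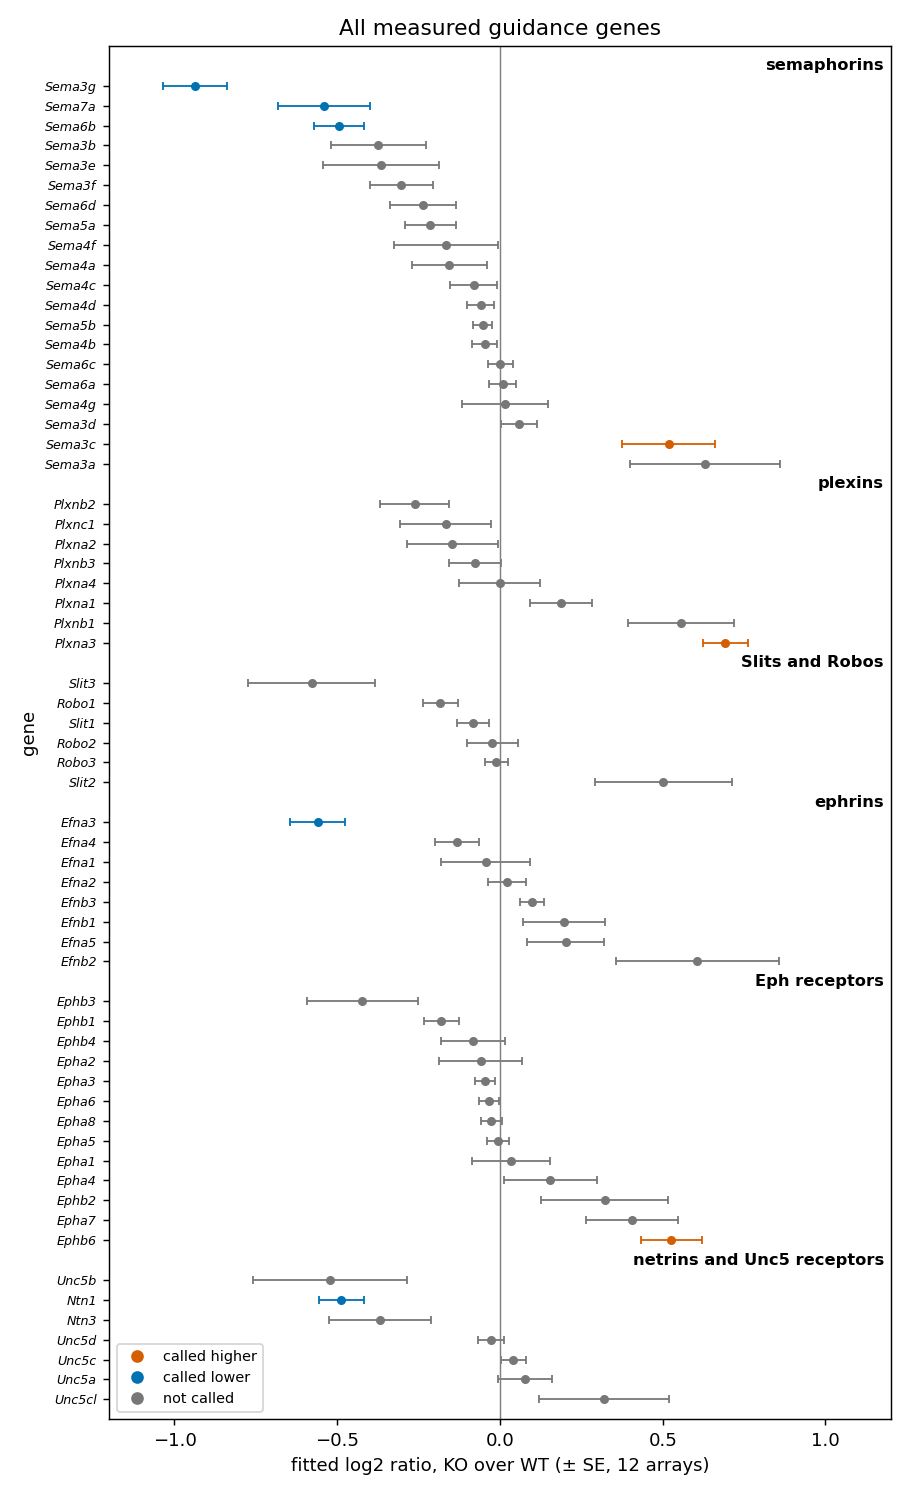
Fitted log2 ratio of KO over WT for the 62 measured genes by family (points, with SE bars, over 12 arrays; Slit2 and Sema4g over 11). The 3 genes called higher lie between 0.52 and 0.69 and the 5 called lower between -0.94 and -0.49.

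Among the 20 semaphorin genes, 1 rose and 3 fell. Sema3g, a secreted class 3 semaphorin found in vascular endothelium, gave the largest difference of all members. Its ratio was -1.67 at the lowest, -0.87 at the median and -0.50 at the highest over the 12 arrays. Every array was below 0, and the pair means were -1.16, -0.74, -0.92 and -0.90 for pairs A to D. The fitted log2 ratio was -0.94 ± 0.098 (SE, n = 12 arrays; limma, adjusted p = 0.000562), a fall of 1.91-fold. Its probe, designed against a cDNA clone, lies at chr14:28659896-28659955 on build mm7 of the array annotation, and no second probe measured it.

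Sema3c, a secreted class 3 semaphorin with roles in vessel and heart development, went the other way. Its ratio was -0.87 at the lowest, 0.62 at the median and 1.25 at the highest. It was above 0 on 10 of 12 arrays, near 0 on replicate 8 and clearly below 0 on replicate 4, where the other 3 arrays of pair A read 0.68 to 0.92. The fitted value was 0.52 ± 0.14 (SE; limma, adjusted p = 0.0490), and without replicate 4 it was 0.62 ± 0.097 (adjusted p = 0.00618). A second probe gave 0.28, which was not called (adjusted p = 0.197), and in the fit over all probes the probe used for the gene had an adjusted p of 0.0537. Its mean was 0.81 on the arrays with KO RNA in Cy5 and 0.21 on those with KO RNA in Cy3. The call was lost in 20 of 35 alternative settings, among them 9 of the 12 fits that left out a single array. In those 12 fits the adjusted p ran from 0.00618 to 0.0956, and the call held without replicate 4, 5 or 10.

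Sema6b, a transmembrane semaphorin, was below 0 on all 12 arrays, from -1.19 over a median of -0.31 to -0.07. The lowest values came from arrays with KO RNA in Cy5, where the mean was -0.81, against -0.19 with KO RNA in Cy3. With that dye difference in the model the fitted value was -0.49 ± 0.078 (SE; limma, adjusted p = 0.00451). Sema7a, a membrane-anchored semaphorin that binds plexin C1 and integrins, read -1.08 at the lowest, -0.54 at the median and 0.53 at the highest. Only replicate 8 was above 0. Its fitted value was -0.54 ± 0.14 (SE; limma, adjusted p = 0.0423), and the call was lost in 20 of 35 alternative settings. Among these were 9 of the 12 fits that left out a single array, where the adjusted p ran from 0.0118 to 0.0866; it held without replicate 5, 8 or 10.

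The other semaphorins were not called. Of the 13 measured genes of classes 4 to 7, 10 had fitted ratios below 0, between -0.54 and 0.02 in all. Sema4a, a transmembrane semaphorin of immune and endothelial cells, had a fitted ratio of -0.16 ± 0.12 (SE; adjusted p = 0.486). Sema6a, named after its values were seen, gave 0.01 from the probe used for the gene, while another of its 3 probes gave -0.22 and was called lower in the fit over all probes (adjusted p = 0.0138). Sema3a, named after its values were seen, had the highest fitted semaphorin ratio at 0.63 ± 0.23 (SE; adjusted p = 0.126). It was above 0 on 9 of 12 arrays, and its second probe gave 0.55. The pair means of Sema3a were 1.25, 0.02, 0.85 and 0.38 for pairs A to D.

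**Figure D2:**
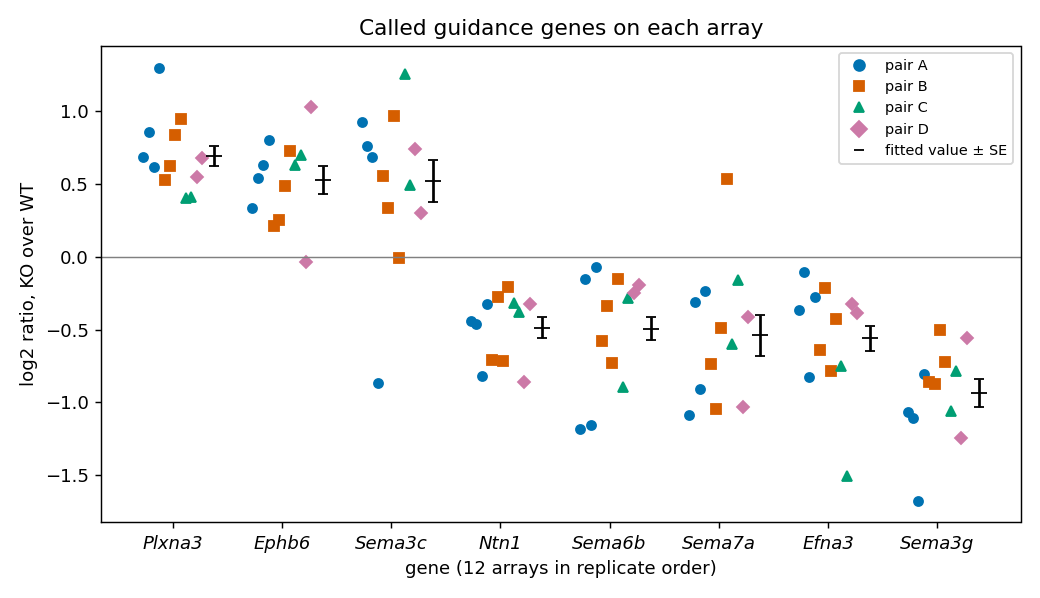
Log2 ratio of KO over WT on each of the 12 arrays for the 8 called genes (points, coloured by pair, in replicate order) with the fitted value ± SE beside them. Plxna3 is above 0 and Ntn1, Sema6b, Efna3 and Sema3g are below 0 on all 12 arrays, and Sema3c shows its low value of -0.87 in pair A.

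Plexins are the signalling receptors of the semaphorins, and 1 of 8 measured plexin genes was called. Plxna3, a receptor for class 3 semaphorins together with neuropilins, had ratios of 0.40 at the lowest, 0.65 at the median and 1.30 at the highest. All 12 arrays were above 0, the highest being replicate 4. The fitted value was 0.69 ± 0.069 (SE; limma, adjusted p = 0.000477), and 0.65 ± 0.056 without replicate 4. The probe, at chrX:69731233-69731292 on mm7, was designed against a cDNA clone and was above background in WT RNA on 10 arrays. A probe against the RefSeq transcript read only 0.13 and was not called (limma, adjusted p = 0.138), although it was above 0 on 11 of 12 arrays. That second probe was above background on 10 arrays in KO and 9 in WT RNA.

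Plxnb1, the receptor of Sema4D, was above 0 on 11 of 12 arrays. Its fitted ratio was 0.56 ± 0.16 (SE, limma, adjusted p = 0.0626), which missed the threshold. Plxnb1 was called higher in 6 of 35 alternative settings. Its second probe gave 0.40. Plxnb2, a related receptor, had a fitted ratio of -0.26 ± 0.11 (SE; adjusted p = 0.166) and was below 0 on 10 arrays. Plxna4 had a fitted ratio of -0.0006 ± 0.12 (SE; adjusted p = 0.999).

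No Slit or Robo gene was called among 6 measured, 3 of which had an unadjusted p under 0.05, as did 22.4% of all genes. Slit3, a secreted Robo ligand, had a fitted ratio of -0.58 ± 0.19 (SE; limma, adjusted p = 0.0958) from the probe used for the gene, with ratios from -1.68 over a median of -0.60 to 0.64. A second Slit3 probe gave -0.53, was below 0 on all 12 arrays and was called lower in the fit over all probes (adjusted p = 0.00548). Slit2, measured on 11 arrays, had a fitted ratio of 0.50 ± 0.21 (SE; adjusted p = 0.187), and its 4 other measured probes ranged from -0.02 to 0.30. Robo1, a Slit receptor, had a fitted ratio of -0.18 ± 0.054 (SE; adjusted p = 0.0648) and a second probe at 0.004.

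Of 8 measured ephrin genes 1 fell. Efna3, a membrane-anchored ligand of EphA receptors, read -1.51 at the lowest, -0.41 at the median and -0.10 at the highest. All 12 arrays were below 0, and the mean was -0.81 with KO RNA in Cy5 against -0.29 with KO RNA in Cy3. The fitted value was -0.56 ± 0.084 (SE; limma, adjusted p = 0.00347), from a probe above background on 10 arrays in either RNA. The 3 ephrin-B genes, whose products are transmembrane ligands of EphB receptors, all had fitted ratios above 0, and none was called. Efnb2, a marker of arterial endothelium, had ratios from -1.42 over a median of 0.57 to 1.66. Its fitted value was 0.61 ± 0.25 (SE; adjusted p = 0.174), and 0.78 ± 0.19 without replicate 4, the array with the lowest value, where it was called (adjusted p = 0.0394). Its second probe gave 0.09. Efnb1 had a fitted ratio of 0.20 ± 0.13 (SE; adjusted p = 0.396) and Efnb3 one of 0.10 ± 0.037 (SE; adjusted p = 0.138).

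Of 13 measured Eph receptor genes 1 rose, where 7.14% of all genes were called in either direction. Ephb6, an Eph receptor whose kinase domain is inactive, had ratios of -0.04 at the lowest, 0.58 at the median and 1.03 at the highest. Replicate 11 was the only array below 0, and replicate 12 of the same pair was the highest. The only Ephb6 probe was above background on 11 arrays in either RNA. The fitted value was 0.53 ± 0.094 (SE; limma, adjusted p = 0.00853), with pair means of 0.57, 0.42, 0.66 and 0.50. The call was lost with median centring (adjusted p = 0.0553), without pair A (0.0919), with each pair averaged to 1 value (0.0671) and within each slide, and it held without any single array. Epha7, named after its values were seen, had a fitted ratio of 0.41 ± 0.14 (SE, limma, adjusted p = 0.108). It was called without replicate 4, at 0.50 ± 0.10 (limma, adjusted p = 0.0200). Replicate 4, at -0.80, was the only array below 0 for this gene. The second Epha7 probe gave 0.02. Ephb1 had a fitted ratio of -0.18 ± 0.055 (SE, limma, adjusted p = 0.0711) and was called lower in 6 of 34 alternative settings. Epha2 had a fitted ratio of -0.06 ± 0.13 and Epha1 one of 0.03 ± 0.12, and each was above 0 on 6 of 12 arrays.

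Of 2 measured netrin genes 1 fell, and none of the 4 Unc5 receptor genes or Unc5cl was called. Ntn1, the founding secreted netrin, read -0.86 at the lowest, -0.41 at the median and -0.21 at the highest. Every array was below 0, and the fitted value was -0.49 ± 0.069 (SE; limma, adjusted p = 0.00285). The probe was designed against a cDNA clone, and a probe against the RefSeq transcript gave -0.05, which was not called (limma, adjusted p = 0.454). That second probe was above background on only 5 arrays in KO and 6 in WT RNA, against 11 and 12 for the probe used. Ntn3 had a fitted ratio of -0.37 ± 0.16 (SE; adjusted p = 0.188) and was below 0 on 10 of 12 arrays. Unc5b, a netrin receptor of endothelium, had a fitted ratio of -0.52 ± 0.24 (SE; adjusted p = 0.217) with ratios from -2.08 to 0.96.

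Probes of the same gene did not always read alike. Of the 32 genes with several measured probes, 17 had all probes on one side of 0. Each of the others had a probe close to 0, such as Robo3 (-0.011 and 0.007), so the count does not show probes moving in opposite directions. Over all probes, 2 member probes were called higher and 7 lower, against 2.83% of all probes called higher, 2.88% lower and 5.71% in either direction. The 3 called genes with a second measured probe, Plxna3, Ntn1 and Sema3c, each had a value closer to 0 from it.

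**Figure D3:**
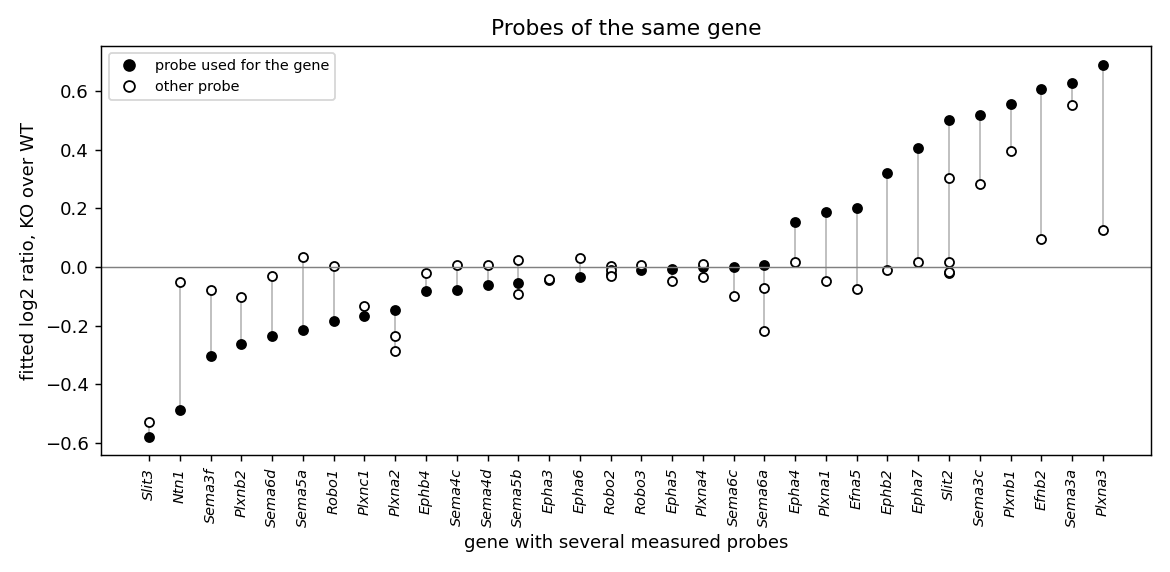
Fitted log2 ratio of KO over WT for each measured probe of the 32 genes with several (filled: probe used for the gene; open: other probes; grey line: their range). Open points lie closer to 0 for Plxna3 (0.13 against 0.69), Ntn1 (-0.05 against -0.49) and Efnb2 (0.09 against 0.61). The open Ntn1 probe was above background on only 5 arrays in KO and 6 in WT RNA.

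The 4 pairs differed in age, sex and slide, and pairs C and D also in dye orientation. KO and WT also differed in age within every pair: the KO was older in pair A and younger in pairs B, C and D. Pair C set a male KO against a female WT as well. Within a pair, a difference by genotype and a difference by age therefore cannot be told apart. The test of differences between pairs, with a dye term, called 0 of 62 members (limma F test, against 0.342% of all genes). At an unadjusted p under 0.05 it gave 6 members, and 12.2% of all genes. Of the 60 members measured on 12 arrays, 5 had the same sign on all of them, against 2.05% of all genes. These were Plxna3, Sema3g, Ntn1, Efna3 and Sema6b. With each pair averaged to 1 value, Sema3g was the only member called (adjusted p = 0.0440), and within single slides no member was called.

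Other genes of the pathways gave 5 higher and 7 lower calls among 105 measured genes of 108 listed, with a median log2 ratio of -0.05. Over all genes 3.37% were called higher and 3.77% lower, and the counts of single lists were not tested against these shares. Of 26 coreceptors and other receptors, 1 rose and 4 fell. Neo1, which encodes the netrin receptor neogenin, had ratios from -0.06 over a median of 1.13 to 2.30 and a fitted value of 1.15 ± 0.21 (SE; limma, adjusted p = 0.00875). Robo4, the Robo receptor of endothelium, was below 0 on all 12 arrays at a fitted -0.70 ± 0.096 (SE; adjusted p = 0.00238). Plxdc1 and Plxdc2, plexin-domain proteins, fell by 0.49 and 0.55 on the log2 scale.

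Of 27 semaphorin and plexin signalling genes none was called by limma, and the smallest adjusted p was 0.0550 for Farp1. Of 24 Slit and netrin signalling genes 3 rose and 1 fell. Ablim3, an actin-binding protein, fell by 1.49 ± 0.26 (SE; adjusted p = 0.00777), and Maged1, an Unc5 partner, rose by 0.56 ± 0.11 (SE; adjusted p = 0.0132). The adaptor Nck2 and the actin regulator Evl rose by 0.52 and 0.51. Of 28 ephrin and Eph signalling genes 1 rose and 2 fell: the adaptors Grb7 (0.52) and Grb10 (-0.66), and Arhgef15 (-0.39), an exchange factor of vascular cells.

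Markers of several cell types were also measured, and the lists differed. The shares over all genes were 3.37% called higher and 3.77% called lower. Of 20 endothelial markers 18 were lower in KO tumours and none higher, with a median of -0.75, and the median over the list was between -1.40 and -0.49 on the 12 arrays. Cdh5, Pecam1 and Erg fell by 0.83, 0.65 and 1.00. Of 12 pericyte and smooth muscle markers 6 were lower (median -0.44), and of 5 lymphatic markers 3. Of 8 fibroblast markers (median -0.43) Lum was higher at 1.13 and Postn lower at -0.81. The 8 leukocyte markers all had ratios below 0 (median -0.18), and 1 of them, Itgax, was called lower. Of 7 alveolar type 1 markers 1 was lower (median -0.29). Of 10 neural and Schwann cell markers 1 was lower (median -0.01), of 9 alveolar type 2 markers 1, and of 6 epithelial markers 0. The airway list ranged from -4.58 to 1.83 between arrays. The part of these cells in the results for Sema3g, Robo4, Sema3c and the other members was not tested.

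**Figure D4:**
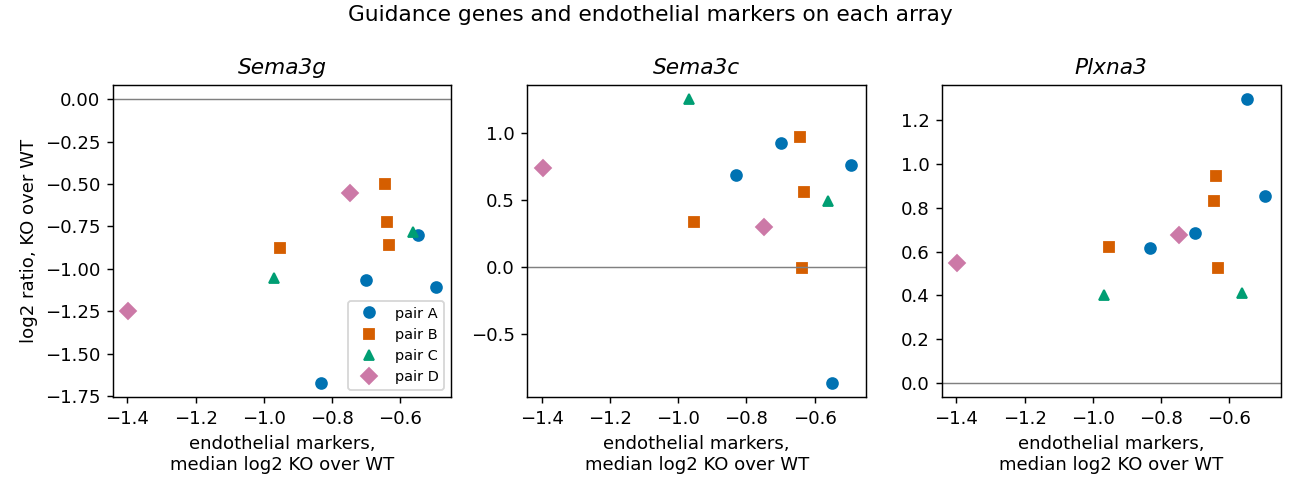
Log2 ratio of KO over WT of Sema3g, Sema3c and Plxna3 (vertical axes, separate scales) against the median log2 ratio of 20 endothelial markers (horizontal) on each of the 12 arrays, coloured by pair. The endothelial median is below 0 on all 12 arrays, from -1.40 to -0.49, while Plxna3 is above 0 and Sema3g below 0 on each.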

How the data were processed

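Total RNA of flash-frozen tumours was labelled with Cy3 or Cy5 and hybridised to 12 two-colour arrays, per the labels' protocols. Agilent Feature Extraction 10.1.1.1 gave the deposited intensity of each spot and of its local background, without normalization, and the deposited flags for spots well above background or outlying, per the file headers. A deposited table of log2 ratios, for which the submitters' processing notes name limma, served as an alternative. Its median on each array lay between -0.0111 and 0.00784, and the method by which the authors centred it is unknown.

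Intensities were background-corrected (normexp, offset 50) and normalized by loess within each array, and the log2 ratios were turned to KO over WT. Spots with an outlying local background took the array's median for that dye. A probe was kept if well above background in KO or WT RNA on at least 6 arrays, and the brightest kept probe stood for a gene. Tests used limma 3.58.1 (statmod 1.5.0, R 4.3.3) on all genes, with a dye term and a random effect of pair (intra-pair correlation 0.0789), and Benjamini-Hochberg adjustment at 0.05. The fit was tested on simulated data. The members and lists were chosen with earlier results of these data known. Described with values are all called members, per family the 2 of smallest p and the 2 of highest mean signal, up to 4 genes per pathway list and 3 per marker list. Sema3a, Sema6a and Epha7 were added after their values were seen. Replicate numbers name arrays and do not pair them. Promoter windows come from RefSeq (GRCm38.p6), and probe positions from the file headers' build mm7. The number of arrays limits the precision.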

Additional observations from a re-analysis of the deposited data

Results flagged for a closer look

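The ratio of Sema3c on replicate 4 was -0.87, far from the other 3 arrays of pair A, which lay between 0.68 and 0.92. It was the only such value in 46 groups of 4 arrays checked over 23 named genes, and chance marks about 1 in 20 groups. Its cause was not tested. Replicate 4 also had the lowest Efnb2 ratio and the highest Plxna3 ratio of the 12 arrays.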

How the results depend on the processing

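Sema3g, Ntn1, Efna3, Sema6b and Plxna3 kept their direction in every alternative run that tested them (35 for Sema3g and Sema6b, 34 for the others). They lost the call in 3 (Sema3g) or 4 of these runs. Sema3c and Sema7a each lost it in 20 of 35, and Ephb6 in 6 of 34. The 3 higher and 5 lower member genes ranged from 2 to 5 and from 4 to 6 when single arrays were left out, with 5 higher and 4 lower without replicate 4. Without slide 3, chosen after seeing the data, they were 2 and 5. Efnb2 and Epha7 gained a call without replicate 4, and Plxnb1 without replicate 3 or 11. Ephb1 gained one without replicate 6, Slit3 without 8, Robo1 without 10 and Sema3f without 12. Median centring left 1 higher, and so did leaving out pair A. Without pair B, Sema3a gained a higher and Sema3b a lower call, and Sema3c lost its call. Requiring signal in both dyes on all arrays left 1 higher and 3 lower, since Plxna3, Ephb6, Efna3 and Ntn1 were then not tested. Averaging each pair left 0 higher and 1 lower, and each slide alone left 0 and 0, with fewer arrays in each fit. The 12 arrays as independent, or the block on red over green ratios, gave 8 lower. Over all genes, against 1471, each slide alone called 0, 1 and 0, pair means 48 and independent arrays 2212.

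Member probes (2 higher, 7 lower) ranged from 2 to 5 and from 6 to 8 without single arrays. They were 4 higher with Agilent's processed signals, backgrounds as deposited, independent arrays, the red over green block and the slide block. They were 1 higher with median centring, with signal in both dyes on all arrays (4 lower) and without pair A, and 0 and 0 with pair means and within each slide. The 5 higher and 7 lower pathway genes ranged from 2 to 6 and from 4 to 11 without single arrays. Higher were 1 with median centring, 8 with the mean of kept probes, independent arrays, the red over green block and the slide block, 9 with array weights, 0 with pair means, within each slide and without pair A, 2 without pair B and 3 without slide 3. Lower were 4 with median centring, without pair D and without slide 3, 12 with independent arrays and the red over green block, 11 with the slide block, 1 with pair means, 3 without pair A and 0 within each slide. Differences between pairs called 1 member with median centring, Robo2, and 0 without any single array.

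Signs turned for 5 uncalled genes among the 23 members named by the rule for description. The other members were not checked for this. Epha2 was 0.070 with median centring, 0.00388 with pair means, 0.238 within slide 3 and 0.088 without pair B, and -0.13 to 0.00216 without single arrays. Epha1 was -0.020 to 0.084 without single arrays. Unc5b (-0.52 in all 12 arrays) was 0.18 and Sema4a (-0.16) 0.013 within slide 2, and Sema4a 0.0016 without slide 3. Plxna4 was 0.014 with processed signals, 0.024 with backgrounds as deposited, 0.00037 with offset 16, 0.099 with median centring, 0.00935 with pair means, 0.031 with array weights, 0.00210 with the deposited ratios, 0.16 within slide 1, 0.046 within slide 3, 0.10 without pair B, 0.036 without pair C and -0.074 to 0.065 without single arrays. The causes were not tested. Signal limits the Efna3 probe in either RNA and the Plxna3 probe in WT RNA, which were above background on 10 of 12 arrays. The Ephb6 probe, above background on 11 arrays in either RNA, and the Ntn1 probe, on 11 in KO RNA, had similarly low signal.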
